A study of Mus musculus with 24 samples.

Results

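Enhancers that lie inside transcribed chromatin, marked by H3K36me3, were examined in mouse macrophages with and without a hairpin against Wdr82. An enhancer here was a peak of H3K4me1 in untreated cells with the scrambled hairpin that met 4 further conditions. It overlapped H3K27ac in both empty-vector libraries, lay 2500 bp or more from H3K4me3 in any library, overlapped H3K36me3 in the untreated scrambled library, and touched no H3K27ac peak of 10 kb or wider in the untreated empty-vector library. Of 61252 H3K4me1 peaks, 2335 (3.81%) met all conditions. The same conditions without H3K36me3 left 6298 enhancers outside H3K36me3, which serve as the comparison throughout. The conditions fix what H3K4me1 of that library, H3K27ac of the empty-vector cells, H3K36me3 of that library and all H3K4me3 show at these enhancers, so those values are given as description.

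The cells were bone marrow-derived macrophages of FVB/Hsd mice, taken on day 7 of differentiation, after retroviral infection and puromycin selection. Every infected culture carried either the Wdr82 hairpin or a control retrovirus. The control was the empty LMP vector for H3K27ac and H3K4me3, and a scrambled hairpin for the remaining antibodies. These recognise H3K4me1, H3K36me3, all forms of RNA polymerase II (total Pol II), and the form phosphorylated on serine 2 of the C-terminal repeat (Ser2P). Each of the 6 antibodies was used in untreated cells and in cells exposed to 10 ng/ml of lipopolysaccharide, the outer membrane glycolipid of Gram-negative bacteria (LPS). The sample titles give an LPS time of 4 h for H3K27ac and H3K4me3 and of 45 min for the other 4 antibodies, while the treatment protocol names 4 h only, so the 45 min rests on the titles. The knockdown used 1 hairpin, Wdr82 mRNA and macrophage markers were not analysed here, and each of the 24 libraries was the only one of its kind. The 24 deposited lists held between 14420 and 65149 peaks, and their read depth is unknown. No difference below was therefore tested against replicate spread, and the 95% intervals cover counting over enhancers only, which are not independent where they share a gene.

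Enhancers are stretches of regulatory DNA flanked by nucleosomes with H3K4me1 and, when active, H3K27ac. Many lie in introns, where the elongating polymerase of the surrounding gene passes through them. H3K36me3 is laid down by SETD2, an enzyme carried by elongating Pol II with Ser2P, and marks the bodies of transcribed genes. WDR82 is a subunit of the SET1 H3K4 methyltransferase complexes and of complexes with protein phosphatase 1 that act in transcription termination, and it binds the polymerase near the start of transcription. The study's title names early termination at regulatory elements as its subject.

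Enhancers in transcribed chromatin met wide H3K36me3 peaks, though 1528 of the 2335 (65.4%) did not lie entirely inside a peak. Over all 2335 the enhancer centre was less often covered than the flanks, a pattern not seen at those lying entirely inside an H3K36me3 peak. The median enhancer was 3636 bp wide, against 2820.5 bp outside H3K36me3, and had 86.6% of its length covered by H3K36me3. An H3K36me3 peak held 807 enhancers (34.6%) entirely, while 668 were covered over less than 50% of their length and 80 over less than 10%. The 2335 enhancers fell on 2084 H3K36me3 peaks out of 37166, taking for each enhancer the H3K36me3 peak that shared most bases with it. Of these host peaks, 1863 held 1 enhancer, 195 held 2 and 26 held 3 or more, with at most 5. The host peaks had a median width of 7835 bp, and the remaining H3K36me3 peaks 3752.5 bp. Hosts were picked by overlap, which a wide peak meets more easily, and the part of this in the width was not tested.

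H3K36me3 also ran along the way from the enhancer to the nearest H3K4me3 mark, the usual mark of a promoter. The median distance to H3K4me3 was 16989 bp, and 25812 bp for enhancers outside. In the untreated scrambled library, H3K36me3 covered a median of 70.0% of that gap, with 734 enhancers (31.4%) covered over 90% or more of it. Outside H3K36me3 the median was 0% and 39 of 6298 (0.619%) reached 90%, but this library also split the enhancers into inside and outside. In the 3 libraries that did not, the median inside was 65.0% in scrambled cells with LPS, 65.6% in untreated knockdown cells and 61.6% in knockdown cells with LPS, and 26.7%, 26.4% and 24.6% of enhancers reached 90%. Outside, the median was 0% in all 3, and 0.937%, 1.05% and 0.826% reached 90%. These libraries largely repeated the split, with H3K36me3 at 87.8 to 88.3% of enhancers inside and 3.00 to 4.18% outside. The contrast in them is therefore not independent of it. Across chromosomes, the share of distal enhancers that lay inside H3K36me3 ranged from 11.6% on X (28 of 242, exact 95% interval 7.83 to 16.3%) to 35.3% on chromosome 5 (176 of 499, 31.1 to 39.6%). Among autosomes, chromosome 19 had the lowest share, 21.6%, and its interval of 16.8 to 27.1% lay above that of X.

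Taken over all 2335, H3K36me3 dipped at the enhancer centre in all 4 libraries. In the 3 libraries that the conditions did not use, 54.9% of enhancer centres lay under H3K36me3 in scrambled cells with LPS, 56.1% in untreated knockdown cells and 55.8% in knockdown cells with LPS. At 5 kb on the side away from H3K4me3 these shares were 69.8%, 71.0% and 70.8%, and at 5 kb toward H3K4me3 they were 65.4%, 65.8% and 65.4%. The centre was thus lower than either flank in each library, by more than the width of the intervals. Where both flanks at 5 kb were covered, the centre between them was bare in 27.8% (320 of 1150), 26.1% (299 of 1147) and 27.6% (317 of 1150) of cases. The same measure taken around points 10 kb away gave 12.8%, 11.9% and 12.3% on the far side and 19.1%, 17.9% and 20.7% toward H3K4me3. The condition that H3K36me3 need only touch the enhancer takes in enhancers at the edge of an H3K36me3 peak, and the part this plays in the dip was not tested. The dip was not seen at the 807 enhancers chosen as lying entirely in an H3K36me3 peak. There the centre was bare between covered flanks in 3.44%, 3.56% and 4.99% of cases in the same 3 libraries, less often than the points 10 kb away, with 11.1%, 10.2% and 9.62% on the far side and 17.9%, 18.3% and 20.2% toward H3K4me3. At the other 1528 the centre was bare in 48.2%, 45.6% and 47.6%. Whether an enhancer lies entirely inside was read from the library that chose the enhancers, so this split fixes much of the contrast.

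**Figure D1:**
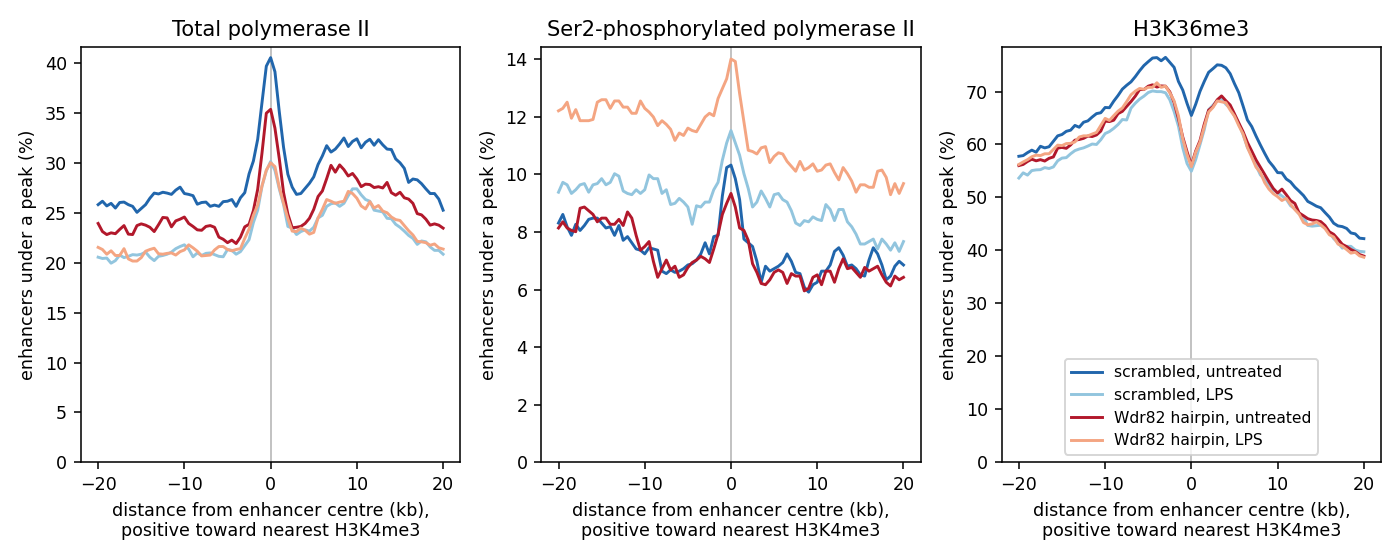
Share of the 2335 enhancers under a peak (y axis, %) at each distance from the enhancer centre (x axis, kb, positive toward the nearest H3K4me3), for total Pol II, Ser2P and H3K36me3, with 1 line per library. Total Pol II and Ser2P are highest at the centre, 40.6% and 10.3% in untreated scrambled cells, where H3K36me3 has its local minimum.

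H3K36me3 itself was largely kept between libraries. It was present at 2050 enhancers (87.8%) in scrambled cells with LPS, at 2061 (88.3%) in untreated knockdown cells and at 2062 (88.3%) in knockdown cells with LPS. With LPS, 181 enhancers (7.75%, against 3.06% of all H3K4me1 peaks) had it with the hairpin alone. The scrambled control alone had it at 169 (7.24%, against 3.44%). The difference was 0.514 points (95% interval -1.06 to 2.08), and its sign turned with the processing. All 4 libraries marked 1812 enhancers (77.6%, and 19.0% of all H3K4me1 peaks). The conditions fixed the mark in the untreated scrambled library, where 25.8% of all H3K4me1 peaks had it, so these shares are not comparable. The 70 enhancers marked only in the library that chose them sat at the weak end, with a median host width of 3209.5 bp and a median H3K36me3 score of 93.3, against 9317.5 bp and 1680.93 for the 1812. The score is the peak caller's own value per peak and runs from 50 upward in these lists.

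Total Pol II was found at more of these enhancers than at enhancers outside H3K36me3, in every library. It was present at 1143 of 2335 (49.0%, 46.9 to 51.0%) in untreated scrambled cells, 801 (34.3%, 32.4 to 36.3%) in scrambled cells with LPS, 960 (41.1%, 39.1 to 43.1%) in untreated knockdown cells and 794 (34.0%, 32.1 to 36.0%) in knockdown cells with LPS. Enhancers outside H3K36me3 stood at 22.0%, 18.5%, 18.7% and 21.8%, library by library, and over all H3K4me1 peaks, promoters included, 32.5%, 25.6%, 30.4% and 26.6%. The untreated scrambled library stood highest inside, outside and over all H3K4me1 peaks. Both LPS libraries stood lowest inside and over all H3K4me1 peaks, but not outside. The untreated scrambled list was also the longest for total Pol II, with 32385 peaks, and the LPS lists held 21891 and 22307. The enhancers inside were wider and nearer to H3K4me3, but the gap was also seen at matched width and, separately, at matched distance. Width and distance were not matched together. Among enhancers of 2000 to under 4000 bp it was 46.3% (477 of 1030) against 20.3% (602 of 2972) in untreated scrambled cells. Among those 30000 bp or more from H3K4me3 it was 41.9% (278 of 664) against 17.9% (509 of 2842).

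**Figure D2:**
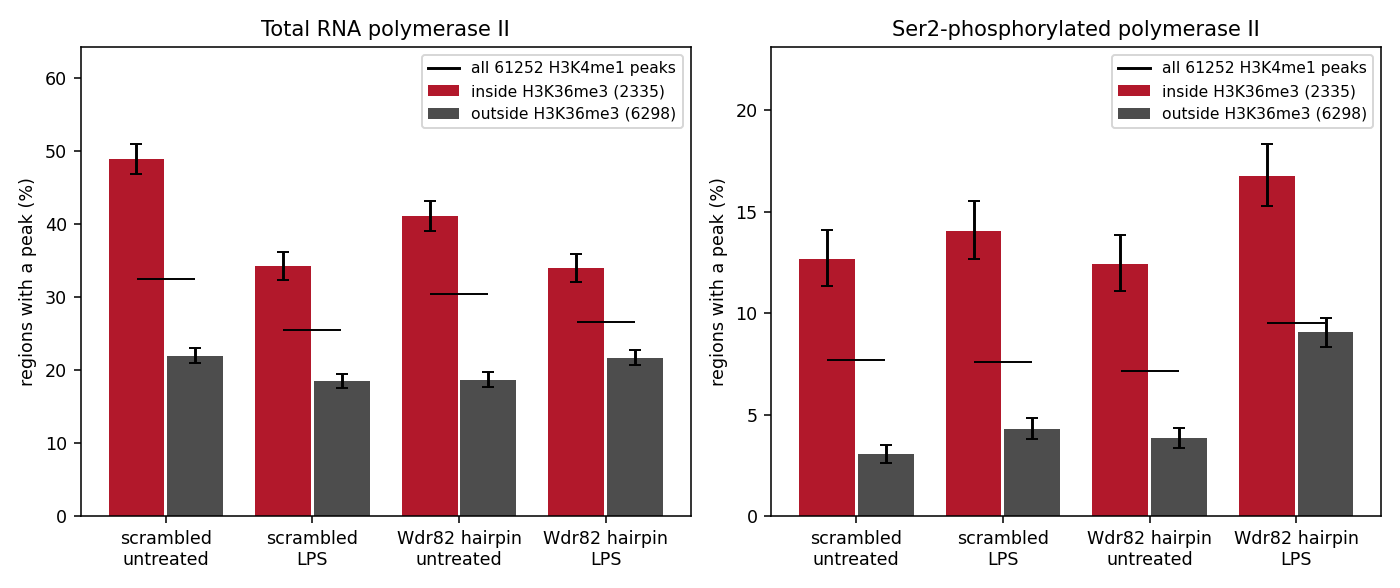
Share of enhancers with a peak of total Pol II (left) or Ser2P (right) in each library (y axis, %), inside (red) and outside (grey) H3K36me3. Error bars are exact 95% binomial intervals and short lines give all H3K4me1 peaks. The red bars stand above the grey ones in all 8 libraries, from 34.0 to 49.0% for total Pol II and from 12.4 to 16.7% for Ser2P.

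Total Pol II at these enhancers combined a local summit with a broad presence over the surrounding region. In untreated scrambled cells, 40.6% of enhancer centres lay under Pol II, against 26.2% at 5 kb on the far side and 28.6% at 5 kb toward H3K4me3. The share then stood at 32.4% at 10 kb toward H3K4me3. A Pol II peak reached across the whole enhancer in 31.5% of the enhancers that had one in untreated scrambled cells, 49.6% in scrambled cells with LPS, 36.7% in untreated knockdown cells and 51.4% in knockdown cells with LPS. Outside H3K36me3 these shares were 5.05%, 20.3%, 9.58% and 38.8%, and a Pol II peak lay within the bounds of the enhancer in 68.3%, 45.6%, 60.0% and 29.3%. The median Pol II peak at enhancers inside measured 4117, 6293, 4760.5 and 6639 bp in the 4 libraries, and 1648, 2613, 1967.5 and 3897.5 bp outside.

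Ser2P, the form of Pol II engaged in productive elongation, was less frequent than total Pol II and set the enhancers inside H3K36me3 apart by a larger factor. It was present at 296 (12.7%, 11.4 to 14.1%) in untreated scrambled cells, 328 (14.0%, 12.7 to 15.5%) in scrambled cells with LPS, 290 (12.4%, 11.1 to 13.8%) in untreated knockdown cells and 391 (16.7%, 15.3 to 18.3%) in knockdown cells with LPS. Outside, the shares were 3.05%, 4.30%, 3.84% and 9.05%, and over all H3K4me1 peaks 7.70%, 7.57%, 7.14% and 9.50%. The knockdown library with LPS was the highest of the 4 both inside and outside. At matched width of 2000 to under 4000 bp, Ser2P was at 12.2% inside and 3.47% outside in untreated scrambled cells, and at 15.6% and 9.69% in knockdown cells with LPS. Most enhancers inside H3K36me3, 1767 (75.7%), had Ser2P in no library, a lower share than the 85.3% of all H3K4me1 peaks and the 88.3% outside. It was in all 4 libraries at 147 (6.30%, against 3.42% of all H3K4me1 peaks).

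Ser2P was concentrated where total Pol II was also called. In untreated scrambled cells it was at 21.4% of the enhancers with total Pol II (245 of 1143) and at 4.28% of those without (51 of 1192). The pairs were 29.5% and 6.00% in scrambled cells with LPS, 20.7% and 6.62% in untreated knockdown cells, and 31.7% and 9.02% in knockdown cells with LPS. Read the other way, 82.8% of the enhancers with Ser2P had total Pol II in untreated scrambled cells, and 72.0%, 68.6% and 64.5% in the other 3 libraries, in that order. The 139 enhancers in knockdown cells with LPS that had Ser2P without total Pol II outnumbered the 51, 92 and 91 of the other libraries. Neither pattern was particular to enhancers inside H3K36me3. Outside, 212 enhancers had Ser2P without total Pol II in knockdown cells with LPS, against 69, 107 and 102 in the other libraries. Ser2P was also more frequent there with total Pol II than without in every library, at 26.1% and 4.30% in knockdown cells with LPS.

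Polymerase did not follow the degree of H3K36me3 cover in steps. In untreated scrambled cells, total Pol II was at 45% of the 260 enhancers with under 25% cover and at 52.7% of the 807 lying entirely inside, with overlapping intervals of 38.8 to 51.3% and 49.2 to 56.2%. Ser2P was at 15.4% and 14.9% of these groups and at 9.74% of the 544 enhancers with 75% cover or more that were not entirely inside. Even the least covered group stood well above the enhancers outside, with 22.0% for total Pol II and 3.05% for Ser2P. The shares of both polymerase forms were higher in wide hosts than in narrow ones in untreated scrambled cells. Total Pol II was at 42.1% of enhancers in hosts under 5000 bp and at 52.6% in hosts of 20000 bp or wider. Ser2P was at 7.41% of enhancers in hosts under 5000 bp and at 17.8% in hosts of 20000 bp or wider. In knockdown cells with LPS these shares were 33.0% and 34.6% for total Pol II, with overlapping intervals, and 14.4% and 24.0% for Ser2P.

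**Figure D3:**
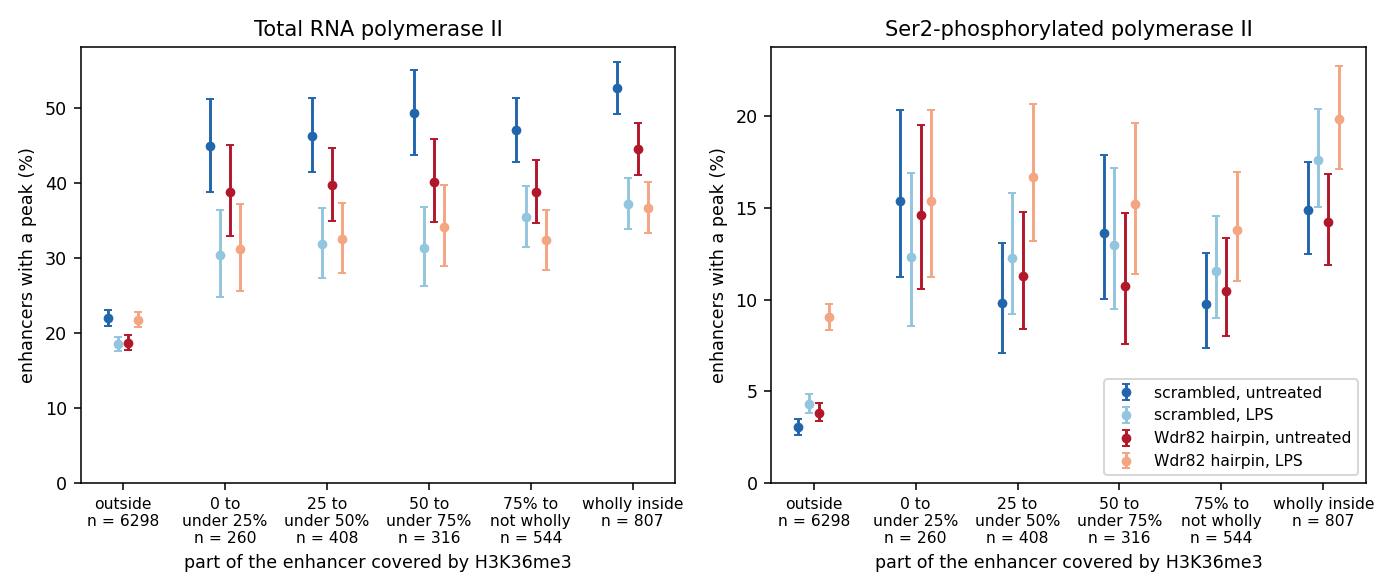
Share of enhancers with total Pol II (left) or Ser2P (right) on the y axis (%), by the part of the enhancer covered by H3K36me3 in untreated scrambled cells on the x axis, with exact 95% binomial intervals and 1 colour per library. The step lies between enhancers outside and those with any cover, from 22.0 to 45% for total Pol II in untreated scrambled cells.

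In untreated scrambled cells, hosts of enhancers had total Pol II more often than other H3K36me3 peaks of similar width, and Ser2P less often, in each of 3 width bands but not among the widest. Total Pol II was found in 37.5% of hosts of 2000 to 5000 bp and 23.4% of others, in 54.6% and 41.1% at 5000 to 10000 bp, and in 70.0% and 62.6% at 10000 to 20000 bp. At 20000 bp or wider it was in 81.7% and 79.2%, with overlapping intervals. Ser2P in the same library was in 8.12% of hosts and 12.7% of others in the narrowest of these bands, then in 17.6% and 24.3%, in 35.3% and 42.4%, and in 59.3% and 58.3% in the widest, where the intervals overlapped. Over all widths, which differed between the groups, Ser2P was in 25.7% of the 2084 hosts and 20.0% of the 35082 others. In knockdown cells with LPS, total Pol II was in 30.0% and 17.7%, 35.8% and 27.2%, 49.1% and 37.9%, and 57.3% and 52.2% from the narrowest to the widest band, and the Ser2P intervals of hosts and others overlapped in each band. The others were not required to lie away from H3K4me3, and the part of that in the comparison was not tested.

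The knockdown in untreated cells went with fewer total Pol II peaks at these enhancers. The share was 41.1% with the Wdr82 hairpin and 49.0% with the scrambled control, a difference of -7.84 points (-9.77 to -5.90). Total Pol II was called with the hairpin alone at 182 enhancers (7.79%, against 3.26% of all H3K4me1 peaks) and with the control alone at 365 (15.6%, against 5.33%). The hairpin was lower on 19 of 20 chromosomes and equal on 1. Outside H3K36me3 the shares were 18.7% with the hairpin and 22.0% with the control, a difference of -3.27 points (-4.03 to -2.51). Inside minus outside came to -4.57 points (-6.65 to -2.49). The control share was lower outside to begin with, and the losses relative to these starting shares were not compared. The 2 lists differ in length, with 32385 peaks in the control and 28497 with the hairpin. When lists were trimmed to equal numbers of their best peaks, the difference was -3.77 points.

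With LPS, the total Pol II share inside H3K36me3 was nearly level between vectors, at 34.0% with the hairpin and 34.3% with the control, a difference of -0.300 points (-1.94 to 1.34). The calls still turned over. With the hairpin alone, 188 enhancers were called (8.05%, against 4.67% of all H3K4me1 peaks), and 195 with the control alone (8.35%, against 3.61%). Outside, the hairpin was higher by 3.26 points (2.48 to 4.03), so that subtracting outside from inside gave -3.55 points (-5.37 to -1.74). Within enhancers inside, those 30000 bp or more from H3K4me3 had a difference of 3.61 points (0.313 to 6.92), close to the 3.91 points of enhancers outside at that distance. In the nearer bands inside and outside parted. From 10000 to under 30000 bp the difference was -1.53 points (-3.99 to 0.925) inside and 3.14 points (1.75 to 4.53) outside. Within 10000 bp it was -2.32 points (-5.23 to 0.600) inside and 2.14 points (0.515 to 3.77) outside. The bands were cut from the same libraries, and the trend over distance was not tested.

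With LPS, total Pol II peaks of knockdown cells were wider than those of scrambled cells outside H3K36me3. Inside, they were the wider at 59.6% of the enhancers compared, against 75.5% outside, though the median difference in width lay within the spread over chromosomes. Where exactly 1 Pol II peak of each LPS library met the enhancer, the median log2 ratio of knockdown to scrambled width was 0.05 inside (510 enhancers, SD of the medians 0.09 over 19 chromosomes) and 0.36 outside (801 enhancers, SD 0.14 over 20 chromosomes). For Ser2P with LPS the medians were 0.16 inside (214 enhancers, SD 0.28 over 12 chromosomes) and 0.48 outside (193 enhancers, SD 0.21 over 10 chromosomes), a gap close to that spread. In untreated cells the contrast lay within the spread, with medians for total Pol II of 0.07 inside (SD 0.10) and 0.13 outside (SD 0.06). Untreated total Pol II peaks were wider with the hairpin at 59.4% of enhancers inside and 66.8% outside. For untreated Ser2P the medians were -0.09 inside (200 enhancers, SD 0.19) and 0.00 outside (119 enhancers). The spread over chromosomes is neither that between replicates nor the error of a median, so a median within it can still differ from 0. Widths depend on depth, which is unknown, and both medians in a pair come from the same lists.

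**Figure D4:**
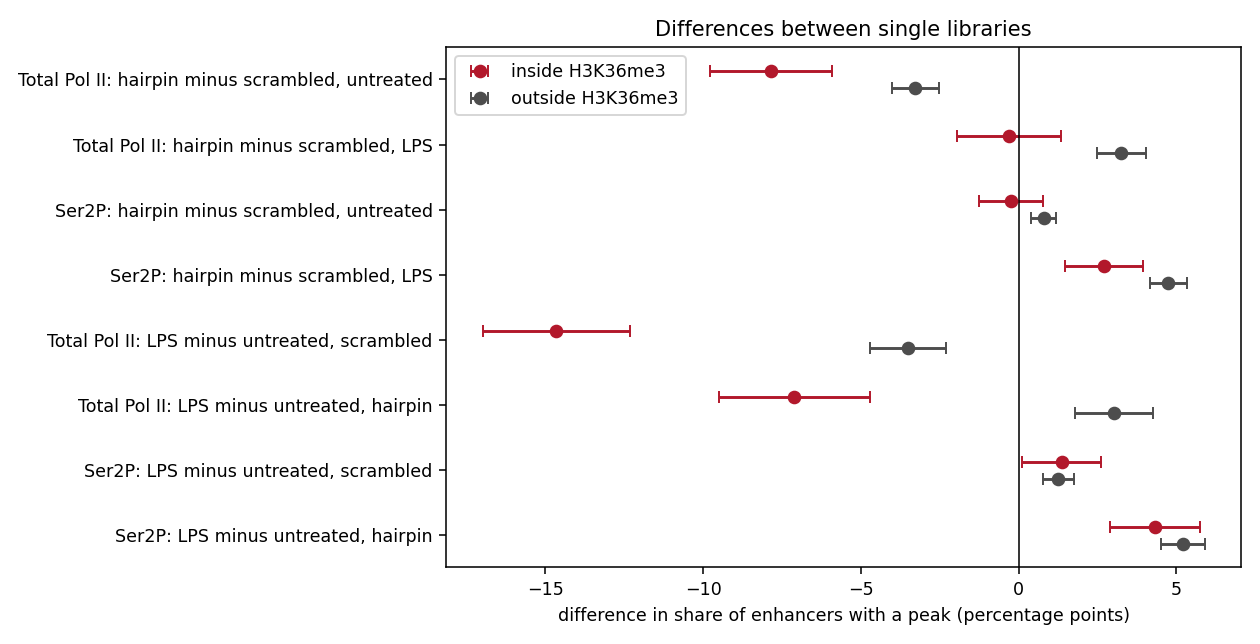
Difference in the share of enhancers with a peak between 2 libraries (x axis, percentage points) for total Pol II and Ser2P, inside (red) and outside (grey) H3K36me3, with 95% intervals that cover counting only. For total Pol II every red point lies left of its grey one, and for Ser2P with LPS the hairpin is higher in both, by 2.70 and 4.75 points.

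Ser2P was called at more of these enhancers with the hairpin than with the control under LPS, while the difference in untreated cells was small and depended on how a peak was counted. With LPS the share was 16.7% with the hairpin and 14.0% with the control, higher by 2.70 points (1.47 to 3.93). Ser2P was called at 140 enhancers with the hairpin alone (6.00%, against 3.77% of all H3K4me1 peaks) and at 77 with the control alone (3.30%, against 1.84%). The hairpin was higher on 16 of 20 chromosomes and lower on 3. Outside H3K36me3 the hairpin was higher by 4.75 points (4.15 to 5.35), with 341 enhancers against 42, so the excess was smaller inside, by -2.05 points (-3.42 to -0.680). In untreated cells the difference inside was -0.257 points (-1.27 to 0.757). There, 70 enhancers were called with the hairpin alone (3.00%, against 1.80% of all H3K4me1 peaks) and 76 with the control alone (3.25%, against 2.36%). Requiring the peak to cover 50% of the enhancer gave -0.942 points (-1.83 to -0.0547), and the centre base -0.985 points (-1.95 to -0.0178). Outside, the untreated difference was 0.794 points (0.389 to 1.2), with 110 enhancers against 60, and over all H3K4me1 peaks it was -0.557 points (-0.718 to -0.395). The Ser2P list of knockdown cells with LPS covered 60.6 Mb, against 44.7 Mb for the scrambled control with LPS. With the longer list narrowed to the covered length of the shorter, the LPS difference was 1.58 points.

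Some of the Ser2P calls made with the hairpin alone under LPS lay close to a Ser2P peak of the scrambled library, and more lay far from any. Of the 140 enhancers with Ser2P in knockdown cells alone under LPS, 24 (17.1%) had a Ser2P peak of the scrambled library within 1000 bp and 58 (41.4%) had none within 10 kb, with a median distance of 7785 bp. Of the 341 such enhancers outside H3K36me3, 20 (5.87%) had one within 1000 bp and 216 (63.3%) none within 10 kb, with a median of 19173 bp. Scrambled Ser2P was thus nearby more often inside H3K36me3 than outside, and how far peak borders set these calls was not tested.

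Few enhancers showed the same polymerase difference with and without LPS. Ser2P was called in both knockdown libraries and in neither control at 15 enhancers (0.642%, against 0.340% of all H3K4me1 peaks), and in both controls and neither knockdown at 12 (0.514%, against 0.341%). The 2 crossed patterns, in which the libraries that agree differ in both vector and treatment, had 7 (0.300%, against 0.167%) and 10 (0.428%, against 0.106%). The exact 95% intervals of these 4 counts overlapped, from 0.360 to 1.06% for the first and from 0.121 to 0.617% for the third. For total Pol II the counts were 24 in both knockdown libraries only (1.03%, against 0.441%) and 45 in both controls only (1.93%, against 0.526%). The crossed patterns of total Pol II had 29 (1.24%, against 0.411%) and 8 (0.343%, against 0.227%). Calls in a single library were more frequent. For Ser2P the most frequent of these was knockdown cells with LPS alone, at 102 enhancers (4.37%, against 2.89%), and for total Pol II untreated scrambled cells alone, at 197 (8.44%, against 3.12%).

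LPS for 45 min went with fewer total Pol II calls at these enhancers in the lists as deposited, and with more Ser2P calls in knockdown cells. In scrambled cells total Pol II was 34.3% with LPS and 49.0% without, a difference of -14.6 points (-17.0 to -12.3). It was called with LPS alone at 244 enhancers (10.4%, against 5.00% of all H3K4me1 peaks) and untreated alone at 586 (25.1%, against 12.0%). In knockdown cells the difference was -7.11 points (-9.49 to -4.73), with 326 called with LPS alone (14.0%, against 6.89%) and 492 untreated alone (21.1%, against 10.7%). These depend on list length, since the LPS lists hold 21891 and 22307 peaks. When lists were trimmed to equal numbers of peaks, it was -1.16 points with the scrambled hairpin (-3.41 to 1.10) and 1.88 points with the Wdr82 hairpin (-0.422 to 4.19). Both of these intervals took in 0. The position relative to enhancers outside was less dependent on list length. Inside minus outside was -11.1 points in scrambled and -10.1 points in knockdown cells, and -5.89 and -6.09 points with equal numbers of peaks.

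For Ser2P, LPS went with 1.37 points more in scrambled cells (0.115 to 2.63) and 4.33 points more in knockdown cells (2.91 to 5.74). The first of these lay near the limit of counting error, since its interval took in 0 with 1 enhancer per host (1.01 points, -0.298 to 2.31), with the centre base (1.2 points) and in the width band of 2000 to under 4000 bp (1.17 points). In scrambled cells 128 enhancers were called with LPS alone (5.48%, against 2.88% of all H3K4me1 peaks) and 96 untreated alone (4.11%, against 3.00%). In knockdown cells these were 195 (8.35%, against 4.91%) and 94 (4.03%, against 2.55%). Enhancers outside H3K36me3 had 1.25 points more with LPS in scrambled cells (0.764 to 1.74), and inside minus outside was 0.116 points (-1.23 to 1.46). Over all H3K4me1 peaks, the scrambled libraries differed by -0.124 points (-0.316 to 0.0679). The knockdown difference in Ser2P was larger with LPS than without by 2.96 points (1.4 to 4.51) inside and 3.95 points (3.26 to 4.65) outside. For total Pol II the corresponding shift was 7.54 points (5.09 to 9.99) inside and 6.53 points (5.47 to 7.58) outside.

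The marks of the enhancers themselves were mostly kept in knockdown cells. H3K27ac, the mark of active enhancers, was present at 2206 (94.5%) in untreated knockdown cells and at 2110 (90.4%) with LPS, and outside at 94.2% and 89.4%. Since the conditions required H3K27ac in both empty-vector libraries, these shares could only be lower than in controls and are not compared with them. Between the knockdown libraries, LPS for 4 h was 4.11 points lower (-4.11, -5.53 to -2.70). The mark was present with LPS alone at 96 enhancers (4.11%, against 6.11% of all H3K4me1 peaks) and untreated alone at 192 (8.22%, against 14.5%). H3K27ac was missing in both knockdown libraries at 33 enhancers (1.41%) and, outside H3K36me3, at 89 of 6298 (1.41%). Over all H3K4me1 peaks, which were not chosen for H3K27ac, 0.296% had it in both empty-vector libraries only. Total Pol II in untreated scrambled cells was at 50.5% of the 2014 enhancers with H3K27ac in both knockdown libraries and at 38.9% of the other 321, while Ser2P was at 12.8% and 12.1%.

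H3K4me1, the general enhancer mark, was at 2276 enhancers (97.5%) in scrambled cells with LPS and at 2189 (93.7%) in knockdown cells with LPS, a difference of -3.73 points (-4.70 to -2.76). It was present in the control alone at 112 enhancers (4.80%, against 11.0% of all H3K4me1 peaks) and with the hairpin alone at 25 (1.07%, against 4.97%). The hairpin was lower on 20 of 20 chromosomes. Outside H3K36me3 the difference was -4.05 points, so inside minus outside was 0.323 points (-0.854 to 1.50). The starting list was a scrambled library, and the part of that choice in the knockdown difference was not tested.

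Individual enhancers, picked by the values described for each and positioned on the mm9 build, show how these calls look. The first of the 15 enhancers with Ser2P in both knockdown libraries only, ranked by the lower of its 2 scores, was chr14:34086252-34091411. It lay entirely in an H3K36me3 peak of 34160 bp, 21074 bp from H3K4me3. Its Ser2P scores were 865.02 in untreated knockdown cells and 1313.16 in knockdown cells with LPS. The untreated knockdown peak overlapped only the edge of the enhancer and ended at -1749 bp from its centre, while the peak with LPS covered it wholly. The nearest Ser2P peaks of scrambled cells lay 34550 bp away without and 13135 bp away with LPS. Total Pol II was called there in untreated scrambled cells with a score of 60.8 and in knockdown cells with LPS with 66.4, both near the lower limit of 50, and in neither of the other 2 libraries. H3K27ac scores were 2163.93 and 997.53 in empty-vector cells and 3100 and 644.94 in knockdown cells, untreated and with LPS.

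**Figure D5:**
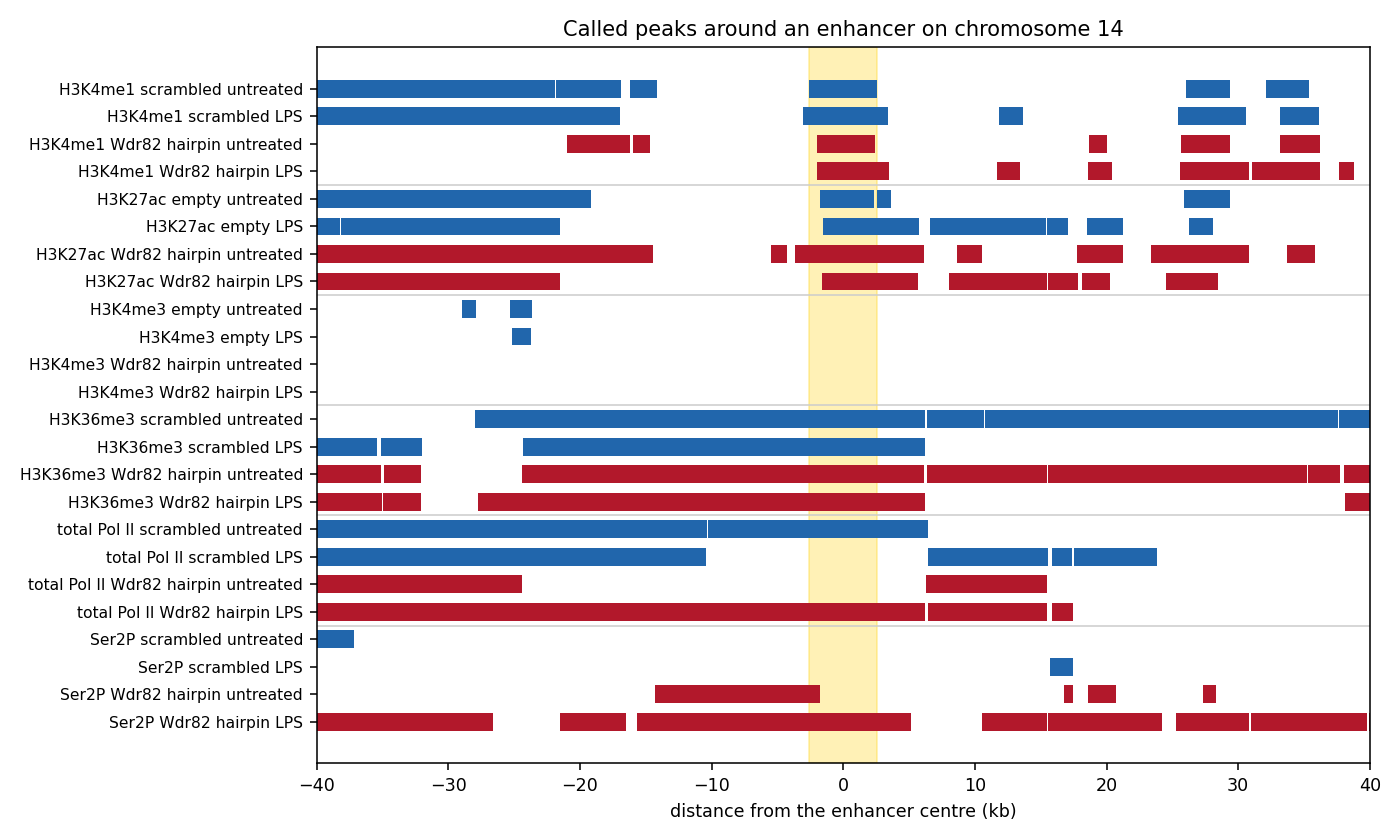
Called peaks in all 24 libraries (rows) around the enhancer on chromosome 14 (yellow), by distance from its centre (x axis, kb), in control (blue) and knockdown (red) cells. Ser2P covers the whole enhancer in the knockdown row with LPS. In the untreated knockdown row it overlaps only the edge, ending at -1749 bp from the centre, where the enhancer runs from -2580 to 2580 bp. No Ser2P touches it in the control rows, where the nearest peaks lie 34550 and 13135 bp from it. H3K36me3 covers it in all 4 of its rows.

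Of the next 4 of these 15, 3 lay close to Ser2P of scrambled cells in at least 1 treatment and 1 lay far from it. At chr7:139903715-139908057, Ser2P scores were 459.39 and 295.13 in knockdown cells, but Ser2P peaks of scrambled cells ended 12 and 341 bp away. At chr16:91870277-91872690 they lay 17 and 88 bp away, and at chr7:87022031-87024552 121 and 2186 bp away. The fifth, chr4:130337715-130340112, had scores of 174.4 and 150.17, and its nearest scrambled Ser2P peaks were 42574 and 151283 bp away. In the reverse pattern, chr13:58508627-58511271 had Ser2P scores of 1070.04 and 566.54 in scrambled cells, with Ser2P peaks of knockdown cells 131 and 406 bp away. At chr10:90615957-90619588 the scrambled scores were 747 and 420.73 and the nearest knockdown peaks lay 1139 and 61 bp off. At chr5:145938189-145940256 they were 988.86 and 333.28, with 895 and 244 bp. A peak of the other vector thus lay at most 1139 bp away in all 3.

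For total Pol II, the leading enhancer called in both knockdown libraries only was chr18:67565438-67567972, with scores of 923.28 untreated and 973.12 with LPS. The nearest Pol II peaks of scrambled cells were 39846 and 159486 bp away, yet Ser2P was called there in all 4 libraries, with scores of 1862.38 and 2454.03 in scrambled and 1423.54 and 2643.53 in knockdown cells. The next were chr11:32269832-32271373, with scores of 1102.78 and 714.39 in an H3K36me3 peak of 60346 bp, and chr19:16250774-16259136, with 245.48 and 198.85. Neither had Ser2P in any library. Among enhancers with total Pol II in both controls only, chr12:33538505-33543958 led, with scores of 626.37 untreated and 3100 with LPS. Ser2P was called there in all 4 libraries, with 464.63 in scrambled and 585.8 in knockdown cells without LPS, and with 3100, near the ceiling of the scale, in both with LPS. At chr5:114289464-114295465 total Pol II had 1553.05 and 405.44 in scrambled cells, and Ser2P was called in untreated cells of both vectors with 3066.97 and 3035.12. With LPS, Ser2P there followed total Pol II, with 409.37 in scrambled cells and no call in knockdown cells, where the nearest Ser2P peak lay 116 bp away. The third, chr16:87711942-87718336, had total Pol II scores of 389.99 and 672.14 and no Ser2P. A total Pol II call and a Ser2P call from the same cells could therefore differ at 1 enhancer.

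The strongest Ser2P enhancers had it in every library. At chr1:88239746-88243661, chr3:108702063-108705940 and chr4:63021510-63024709, the Ser2P score was 3100 in all 4 libraries, at or near the ceiling of the scale. Total Pol II was also called at all 3 in all 4 libraries, from 282.48 to 732.08 at the first and from 317.33 to 835.8 at the second. At the third, total Pol II was 3100 in 3 libraries and 571.24 in knockdown cells with LPS. Scores at the ceiling cannot show a difference.

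Of the 33 enhancers without H3K27ac in either knockdown library, chr17:5323126-5324764 had the strongest empty-vector peaks, with H3K27ac scores of 3100 and 2001.64. It kept H3K36me3 at 3100 in all 4 libraries, and its H3K4me1 scores were 68.7 and 197.33 in scrambled and 193.63 and 305.3 in knockdown cells. At chr13:100911293-100913476, with empty-vector scores of 175.47 and 3100, total Pol II and Ser2P were called in untreated and in LPS-treated scrambled cells and in untreated knockdown cells, and Ser2P alone in knockdown cells with LPS. At chr13:55752190-55754650, with 414.48 and 144.22, H3K4me1 was also missing in both knockdown libraries and no polymerase was called in any library.

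The hosts with most enhancers differed from one another in how polymerase filled them. The H3K36me3 peak with most enhancers, chr2:153000260-153024765, held 5, of 2225 to 4094 bp. Total Pol II covered 11.3% of this host in untreated scrambled cells, 100% in scrambled cells with LPS, 47.7% in untreated knockdown cells and 0% in knockdown cells with LPS, where the nearest Pol II peak lay 463 bp outside. Ser2P covered 0% in untreated cells of either vector, 30.9% in scrambled cells with LPS and 70.3% in knockdown cells with LPS. All 5 enhancers had total Pol II in scrambled cells with LPS and none in knockdown cells with LPS, while Ser2P was at 2 and 5 of them. In chr18:12289127-12317696, with 4 enhancers, total Pol II covered 29.5% and 29.2% of the host in untreated and 100% in LPS-treated cells of both vectors. Ser2P covered 7.30% and 6.25% without LPS, and 39.4% and 57.9% with LPS, in scrambled and knockdown cells. In chr4:140521288-140538101, also with 4, total Pol II was the wider in untreated cells, at 80.4% and 90.1%, against 41.1% and 58.4% with LPS. Over the 221 hosts with 2 or more enhancers, the enhancers of a host were split between with and without total Pol II in 43 to 74 hosts, depending on the library, so that sharing a host did not fix the call.

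Enhancers just inside each limit can be set beside those just left out. The nearest to H3K4me3 that was kept, chr2:155549391-155551629, lay 2510 bp away, and the first left out, chr16:52054383-52058017, 2489 bp. Of the 266 kept from 2500 to under 5000 bp, 51.5% had total Pol II and 19.5% Ser2P in untreated scrambled cells, and of the 298 left out because they lay nearer without touching H3K4me3, 66.1% and 22.8%. For the width of H3K27ac, the widest kept was 9997 bp and the narrowest left out 10017 bp. In untreated scrambled cells, the 132 kept with H3K27ac of 8000 to under 10000 bp had total Pol II at 52.3% and Ser2P at 6.06% (2.65 to 11.6%), and the 257 left out for wider H3K27ac had 57.6% and 14.4% (10.3 to 19.3%). The least covered enhancer, chr5:104162589-104165974, shared 0.0591% of its length with H3K36me3.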

How the data were processed

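Chromatin immunoprecipitation followed by sequencing was deposited as 24 lists of peaks. Per the submitters' processing notes, the tools were Bowtie 0.12.7 for alignment and MACS 1.4, and the build was mm9. The deposited lists give a start, an end and a score for each peak. The score is the authors' peak caller value, from 50 up to 3233.06, and the start and end are the deposited positions, given here counted from 1. Whether an input library was used, and any further filter, is not given in the sources used here.

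The enhancers and the lists compared were chosen with earlier results of these data known. Peaks were joined in Python 3.11.15 with numpy 2.4.6, pandas 2.3.3 and scipy 1.17.1, and 1 shared bp counted as overlap. Shares carry exact Clopper-Pearson 95% intervals. Differences between libraries are paired over enhancers, with 95% Wald intervals, and differences between inside and outside add both variances. The interval code was checked on simulated data. Named enhancers were the first by the lower score within each stated pattern (5 and 3 for Ser2P in 1 vector only, 3 for the others), the 3 hosts with most enhancers, and those nearest each limit. Alternatives were an overlap of 50%, a score of at least 100, equal numbers of peaks, narrowed lists, enhancers wholly inside a peak, 5000 bp from H3K4me3 and 1 enhancer per host. A further pair, the enhancer's centre base and a width of 2000 to under 4000 bp, were chosen after seeing the data. No genome or annotation of mm9 was used, so no gene names or sequences are given.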

Additional observations from a re-analysis of the deposited data

Results flagged for a closer look

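5 differences were set apart because the interval of a difference between groups left out 0. Each interval covers counting over enhancers only, and none was tested against replicates. The knockdown difference inside H3K36me3, with LPS minus untreated, was 7.54 points for total Pol II and 2.96 points for Ser2P. Enhancers inside minus those outside H3K36me3 gave a knockdown difference in total Pol II of -4.57 points untreated and -3.55 points with LPS. For Ser2P with LPS it was -2.05 points. These are differences in points between groups whose starting shares differed, and relative differences were not compared. All libraries of one group were single, so library and group cannot be told apart.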

How the results depend on the processing

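No paired analysis was possible because every group holds 1 library, and for the same reason no replicate could be left out. Of 16 differences under 9 alternatives, 124 values stayed within the interval of the reported one, and 20 lay outside it. The sign changed in 5, of which 4 were values whose reported interval took in 0 (H3K36me3 with LPS at -3.60 and -1.50, and the knockdown difference of total Pol II with LPS at 0.300 with a score of at least 100 and 0.144 with 1 enhancer per host). The interval came to take in 0 in 6 cases, among them the LPS difference of Ser2P in scrambled cells, and to leave it out in 7. With equal numbers of top peaks, the LPS difference in total Pol II was -1.16 points in scrambled cells (-3.41 to 1.10). In knockdown cells it changed sign to 1.88 points (-0.422 to 4.19), and both intervals took in 0 (inside minus outside -5.89 and -6.09). The knockdown difference in untreated total Pol II was then -3.77, and that of H3K36me3 with LPS -3.60. Peaks with a score of at least 100 gave -10.4 and -1.97 for the LPS differences in total Pol II (inside minus outside -7.00 in knockdown cells) and -6.12 for H3K4me1. An overlap of 50% gave -9.38 and -4.50 for these LPS differences and -5.14 for the untreated knockdown difference, and the centre base gave -10.4 in scrambled cells and -5.18. Narrowing the longer list gave -1.50 for H3K36me3 and 2.83 for the LPS difference of Ser2P in knockdown cells. Enhancers wholly inside gave 4.71 for H3K36me3, -4.83 for H3K4me1 and 2.73 for the LPS difference of Ser2P in scrambled cells. The cause was not tested. Taking 1 enhancer per host, 5000 bp from H3K4me3 or a width of 2000 to under 4000 bp moved none of the 16 outside its interval, though 1 per host and the width band brought 0 into that of the LPS difference of Ser2P in scrambled cells. The knockdown difference of Ser2P with LPS ran from 1.58 to 2.74 points.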
